A study of Mus musculus with 6 samples.

Results

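The Fggy locus was examined in ATAC-seq peak lists from primary mouse oviductal smooth muscle cells with and without Pbrm1. ATAC-seq marks open chromatin by the insertion of a transposase. Fggy (ENSMUSG00000028573.18) lies on the plus strand of chromosome 4, from 95557507 to 95926939 in GRCm38, and spans 369.4 kb. Every entry of the 8 deposited lists that overlapped the gene body or the 50 kb on either side was kept. This gave 587 of 2108393 entries, or 395 intervals when those distinct within each list are summed over the 8 lists. Merging the 2 conservative lists left 17 regions in this locus, of 66679 in the genome. The locus was chosen by the rank-score difference at its promoter region, so all contrasts between genotypes at the promoter are given as a description, with no test.

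FGGY belongs to the FGGY family of carbohydrate kinases, together with the glycerol kinases, xylulokinase and sedoheptulokinase, and is known to phosphorylate the pentose D-ribulose. PBRM1 is a bromodomain subunit of the PBAF form of the SWI/SNF chromatin remodeling complex, which moves nucleosomes with energy from ATP. Open promoters are usually depleted of nucleosomes just upstream of the transcription start.

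The libraries came from 3 WT and 3 Pbrm1 cKO samples on day 2 of pregnancy, taken from mice aged 8 to 12 weeks that had been mated. The study describes its conditional line as floxed Pbrm1 recombined by a Cre driven from the progesterone receptor gene, and its controls as Pbrm1 fl/fl mice, whereas the sample labels give WT. Cells were dispersed enzymatically from oviduct, plated for hours and not sorted. No label says how many animals gave 1 library. The study calls the samples biological replicates. The Pbrm1 deletion itself was not checked here.

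The 6 relaxed lists, 1 for each library, held 298563 to 300000 entries. A tag is a read end as the peak caller counted it. The tags piled over each summit were recovered from the fold enrichment and the p-value of the entry. The median was 8 tags in WT 3 and 13 to 15 in the other 5 libraries, so WT 3 stood apart with the weakest summits. The lowest background of any entry drawn, which follows sequencing depth, was 1.37, 1.11 and 1.13 tags in WT 1, 2 and 3 and 1.21, 1.05 and 1.31 tags in Pbrm1 cKO 1, 2 and 3. These values summed to 3.61 in WT and 3.57 in Pbrm1 cKO, a ratio of 0.989, and the 2 conservative lists had the same lowest backgrounds of 3.61 and 3.57.

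A conservative region lay within 1 kb of a start for 7 of 8 smooth muscle marker genes, the exception being Myocd, and for 1 of 7 oviduct epithelial genes (Foxj1). The same held for 2 of 4 immune, 3 of 3 endothelial and 3 of 3 fibroblast genes. The share over all genes is not given here, and presence of a region does not measure its strength. The Foxj1 region had mean rank scores (log2 of the number of regions over the rank) of 3.89 in WT and 4.14 in Pbrm1 cKO. The highest means of any smooth muscle marker region were 3.00 and 2.51. None of these marker regions passed the limma test between genotypes, which calls 0.0675% of all regions, and 2, both at fibroblast genes, had an unadjusted p under 0.05, as did 15.9% of all regions. All 7 fibroblast marker regions had a higher mean rank score in Pbrm1 cKO (median difference 0.29, smallest adjusted p = 0.196), and 9 of 11 smooth muscle marker regions had a lower one (median difference −0.18, smallest adjusted p = 0.409). The part of these shifts in the results at Fggy was not tested.

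Of 18 annotated Fggy transcripts, 4 start inside the promoter region, which extends over 569 bases from 95557268 to 95557836. The sequence upstream of the first start is shown because the tallest summits of all 6 libraries fall in it. That of a later RefSeq start, which no relaxed interval covered in any library, is shown for comparison. Both are RefSeq sequences of GRCm38.p6, 250 bases on the plus strand and ending at the base before the start, with the letters matched by a searched motif in capitals.
Fggy first start (chr4:95557257-95557506): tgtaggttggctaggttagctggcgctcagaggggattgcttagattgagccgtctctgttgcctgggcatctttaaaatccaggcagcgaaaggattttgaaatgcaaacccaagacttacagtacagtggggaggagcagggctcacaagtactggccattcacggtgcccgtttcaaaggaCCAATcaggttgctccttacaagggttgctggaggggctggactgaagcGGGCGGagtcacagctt
Fggy later start (chr4:95579171-95579420): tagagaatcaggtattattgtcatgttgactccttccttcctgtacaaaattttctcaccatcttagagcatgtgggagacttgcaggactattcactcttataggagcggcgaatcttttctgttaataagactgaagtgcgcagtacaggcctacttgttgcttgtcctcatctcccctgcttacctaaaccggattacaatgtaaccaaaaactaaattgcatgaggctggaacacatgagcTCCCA

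In the window of 300 bases around the first start (250 before it and 50 from it on), a CCAAT box (letters CCAAT) lay at −66 to −62 and a GC box (letters GGGCGG) at −17 to −12, counted from the start as 0. A second GC box lay on the minus strand at 7 to 12. Of 32851 RefSeq promoter windows of that length, 37.4% held CCAAT and 35.7% held GGGCGG on either strand. The window did not contain a TATA box (TATAAA), an AP-1 site (TGACTCA), a cAMP response element (TGACGTCA), a canonical E-box (CACGTG) or an ETS core (CCGGAAG), which 13.6%, 5.20%, 1.79%, 7.15% and 8.86% of all windows held in that order. The study names 4 motifs from PBRM1 and BRG1 binding in uterine stromal cells, and none of their letters were in the window. The window of the later start held one of them (TCCCAG) at −5 to 0, as did 31.8% of all windows. The other motifs of the study are CCAGGGCCT (held by 0.861% of windows), then GACCACT (2.66%) and lastly TCGGTG (6.83%). GC content was 56.0% at the first start and 42.0% at the later one, against a median of 52.7% over all windows. The windows held 10 and 4 CpG dinucleotides, against a median of 7. No base of the promoter region was masked as a repeat, and a genome search found no other match of 100 bases or more.

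The Fggy promoter was a weak site in WT and a strong one in Pbrm1 cKO. The best summit held 20, 12 and 8 tags in WT 1, 2 and 3 and 95, 78 and 89 tags in Pbrm1 cKO 1, 2 and 3. Every Pbrm1 cKO library lay above every WT library, and WT 3 was the lowest of the 6. By rank within each library, the genotypes did not overlap, in either direction, at 21.5% of all regions. The means were 13.3 ± 6.1 tags in WT and 87.3 ± 8.6 tags in Pbrm1 cKO (SD, n = 3 each), a ratio of 6.55. Divided by the lowest background of the library, the means were 10.8 ± 3.7 and 73.6 ± 5.3, a ratio of 6.79. The lowest Pbrm1 cKO value on that scale was 4.67 times the highest WT value. These numbers are pileups at 1 position and not read counts of the region. This scaling follows sequencing depth and does not adjust for the general height of summits in a library. The median summit held 14, 13 and 8 tags in WT 1, 2 and 3 and 15, 13 and 14 tags in Pbrm1 cKO 1, 2 and 3. The part of this in the ratios was not tested. A larger share of cells with an open promoter and a more open promoter in each cell cannot be told apart in these bulk libraries.

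**Figure D1:**
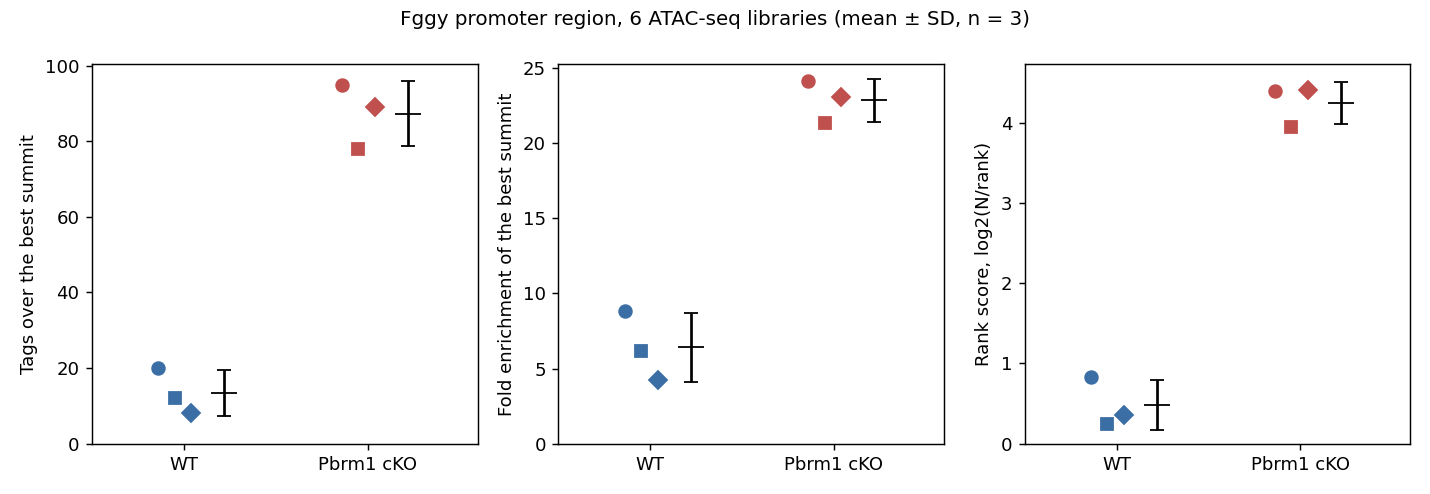
The Fggy promoter region in each of 6 libraries, with tags over the best summit, its fold enrichment and the rank score (log2 of the number of regions over the rank) on 3 vertical axes that start at 0. Points are libraries and bars are means ± SD (n = 3). Tags run from 8 to 20 in WT and from 78 to 95 in Pbrm1 cKO.

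The fold enrichment of the best summit over local background was 8.84, 6.17 and 4.23 in WT 1, 2 and 3 and 24.1, 21.3 and 23.1 in Pbrm1 cKO 1, 2 and 3. The fold differed less between genotypes than the tags did (a ratio of means of 3.56). The local background at this summit was 1.37, 1.11 and 1.13 tags in WT, equal to the lowest of each library, and 2.98, 2.70 and 2.90 tags in Pbrm1 cKO. The −log10 p of the summit was 17.4, 9.66 and 5.53 in WT and 105.8, 84.0 and 97.8 in Pbrm1 cKO.

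The promoter summits had the same places in all Pbrm1 cKO libraries. One lay at −101, −104 and −105 bases from the first start in Pbrm1 cKO 1, 2 and 3, and the next at −11, −14 and −17 bases. The 2 were 88 to 90 bases apart and of similar height, with 95 and 91, 73 and 78, and 89 and 79 tags. The CCAAT box lies between them, and the GC box at −17 to −12 covers the second summit in Pbrm1 cKO 2 and 3. A further, lower summit stood 233 to 255 bases downstream of the start with 19 to 30 tags.

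The WT summits lay at the upstream place. They stood at −97, −93 and −102 bases from the start in WT 1, 2 and 3. Only WT 1 had further summits, at 15 bases (12 tags) and 257 bases (8 tags) downstream. The best summits of WT 2 and 3 held only 12 and 8 tags, so lower summits there may have gone uncalled. The interval that held the best summit was 252, 269 and 171 bases wide in WT and 352, 565 and 354 bases wide in Pbrm1 cKO. In the pooled conservative lists the WT interval had 1 summit of 38 tags, and the Pbrm1 cKO interval had 3 summits of 257, 255 and 68 tags.

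**Figure D2:**
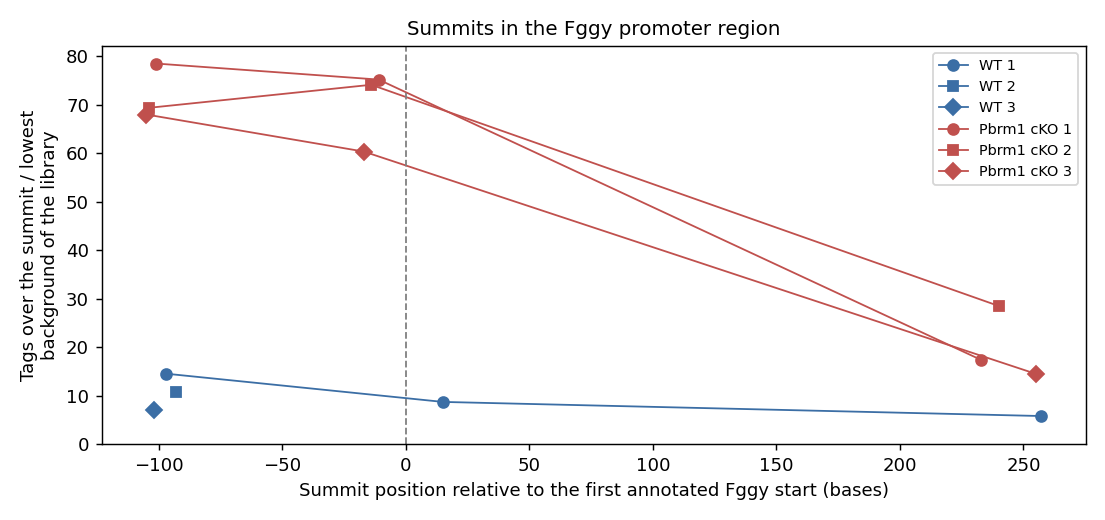
Summits in the Fggy promoter region, by position relative to the first annotated start (horizontal axis, bases; dashed line at the start) and tags divided by the lowest background of the library (vertical axis). Lines join the summits of 1 library. The 3 Pbrm1 cKO libraries have a pair of tall summits upstream of the start and a lower one downstream, and the WT summits stay at or under 14.5.

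Ranks were used to set libraries side by side. Each of the 66679 regions was ranked in each library by the largest −log10 p of an overlapping entry, and the rank score is log2 of the number of regions over the rank, so that 1 unit is a doubling in rank. The Fggy promoter ranked 37548, 56462.5 and 51846.5 in WT 1, 2 and 3 and 3157, 4337.5 and 3150 in Pbrm1 cKO 1, 2 and 3 (ties share a mean rank). Its rank score was 0.83, 0.24 and 0.36 in WT and 4.40, 3.94 and 4.40 in Pbrm1 cKO. The difference was 3.77, and it was 3.71 without WT 3. Over all regions, a difference at least as large in size was found at 3 with a higher and 4 with a lower score in Pbrm1 cKO. Across the genome 45 regions, or 0.0675% of those tested, passed an adjusted p of 0.05 in limma, 26 with a higher and 19 with a lower score in Pbrm1 cKO. On normal scores of the same ranks 662 were higher and 890 lower.

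Among 18860 promoter regions of protein-coding genes, 76.2%, 92.0% and 91.4% ranked better than the Fggy promoter in WT 1, 2 and 3. In Pbrm1 cKO 1, 2 and 3 this share was 15.1%, 20.6% and 15.3%. Most promoter regions were thus stronger than that of Fggy in every WT library and weaker than it in every Pbrm1 cKO library.

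The rest of the locus was compared with the promoter inside each library. By rank, the promoter was number 6, 16 and 13 of the 17 regions in WT 1, 2 and 3, and number 1 in each Pbrm1 cKO library. Its tags made up 4.47%, 3.14% and 3.67% of the tags summed over the best summits of the 17 regions in WT. In Pbrm1 cKO they made up 18.5%, 15.8% and 17.3%. The other 16 regions together had 427, 370 and 210 tags in WT and 419, 416 and 426 tags in Pbrm1 cKO, so WT 3 was low there too and the remaining 5 libraries lay close together.

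**Figure D3:**
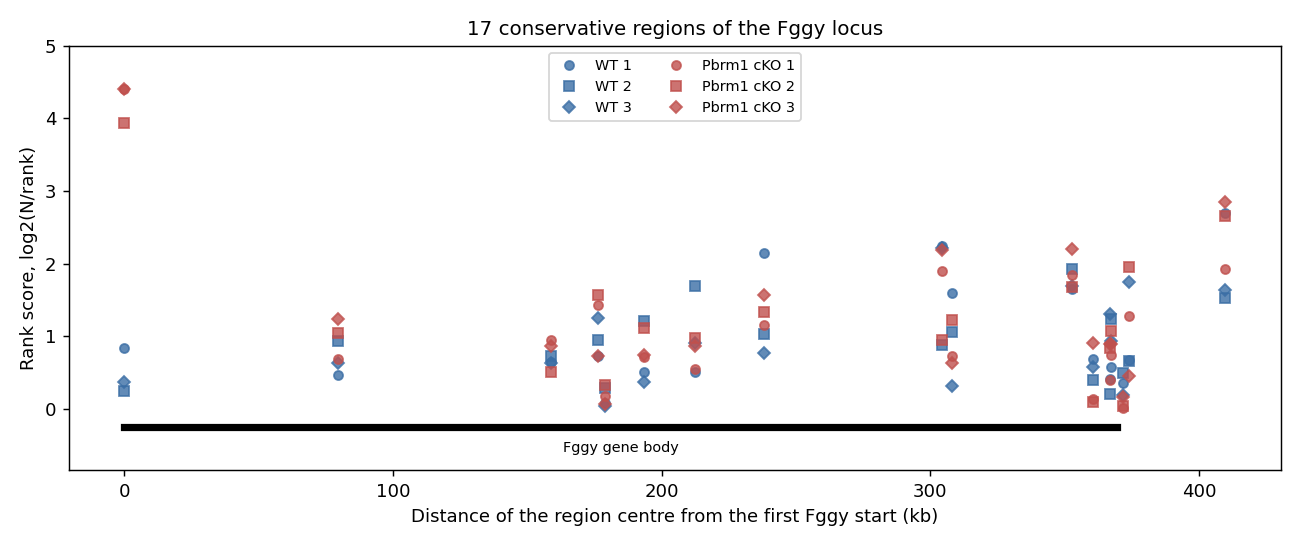
Rank scores (vertical axis, log2 of the number of regions over the rank) of 17 regions by distance of their centre from the first Fggy start (horizontal axis, kb), with 1 point for each library and a bar under the gene body. At the promoter the Pbrm1 cKO points stand between 3.94 and 4.40 and the WT points between 0.24 and 0.83. Elsewhere the genotypes interleave, except at the region centred 371.5 kb from the start.

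None of the other 16 regions passed the limma test (smallest adjusted p = 0.280), and 1 had an unadjusted p under 0.05. Over the genome 10586 regions, or 15.9%, had an unadjusted p under 0.05. The 16 differences ran from −0.28 to 0.53 with a median of 0.07, against a median of 0.00055 over all regions, and 10 were above 0 and 6 below it. The lowest bound of their 95% intervals was −0.98 and the highest 1.34, so shifts of that size at single sites are within the error of this comparison. The groups did not overlap at 1 of the 16, and they did not overlap at 21.5% of all regions. Of the 16, 12 were in both conservative lists and 14 had an entry in all 6 libraries.

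The region with an unadjusted p under 0.05 lay 2 kb past the end of Fggy (95928893 to 95929194, intergenic) and was in the WT conservative list alone. It had 19, 19 and 8 tags in WT 1, 2 and 3 and 12 and 14 tags in Pbrm1 cKO 2 and 3, with no entry in Pbrm1 cKO 1. All WT rank scores were above all Pbrm1 cKO rank scores. This region entered the merged set only through the list of the genotype where it ranks higher, so its contrast is partly set by that filter. The difference was −0.28 (SE 0.12, limma adjusted p = 0.280).

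The strongest of the other sites was the region shared by the starts of Hook1 and the noncoding gene 9530080O11Rik (95966881 to 95967768). Hook1 encodes a microtubule-linked adaptor of endosome transport. Its best summit held 51, 29 and 19 tags in WT 1, 2 and 3 and 41, 48 and 55 tags in Pbrm1 cKO 1, 2 and 3. The groups overlapped, with a rank-score difference of 0.53 (SE 0.39, limma adjusted p = 0.540). This region had the best mean rank among the relaxed intervals of the locus in WT (19468 ± 7751) and the second best, after the Fggy promoter, in Pbrm1 cKO (12820 ± 4668; SD, n = 3 each).

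Inside the gene body, 2 further regions lay within 1 kb of a later annotated Fggy start. The one at 95636780 to 95637658 had 16, 19 and 10 tags in WT and 20, 22 and 25 in Pbrm1 cKO. Its groups overlapped in rank score, and the difference was 0.31 (SE 0.28, limma adjusted p = 0.627). The one at 95769712 to 95770284 had 17, 27 and 12 tags in WT and 18, 20 and 20 in Pbrm1 cKO. Its difference was −0.24 (SE 0.32, limma adjusted p = 0.770). At the second site the groups overlapped in rank score too. The tags at both sites are raw values, not scaled for sequencing depth.

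The other 11 regions in the gene body were intronic. Of these, the regions centred 304.4 and 352.5 kb from the first start had the highest WT means. The former held 51, 26 and 27 tags in WT and 46, 28 and 46 in Pbrm1 cKO. The latter held 40, 40 and 19 tags in WT and 49, 36 and 49 in Pbrm1 cKO. Neither separated the genotypes, with differences of −0.11 (SE 0.41) and 0.15 (SE 0.32). The weakest intronic region, at 95736255 to 95736474, had no entry in WT 3 and 11 to 19 tags in the other 5 libraries. Past the gene end, the intergenic region at 95931373 to 95931851 had 21, 19 and 20 tags in WT and 29, 37 and 17 in Pbrm1 cKO, with a difference of 0.21 (SE 0.40). No conservative region lay within 1 kb of the starts of the small nuclear RNA Gm25004 or the pseudogene Gm20651.

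**Figure D4:**
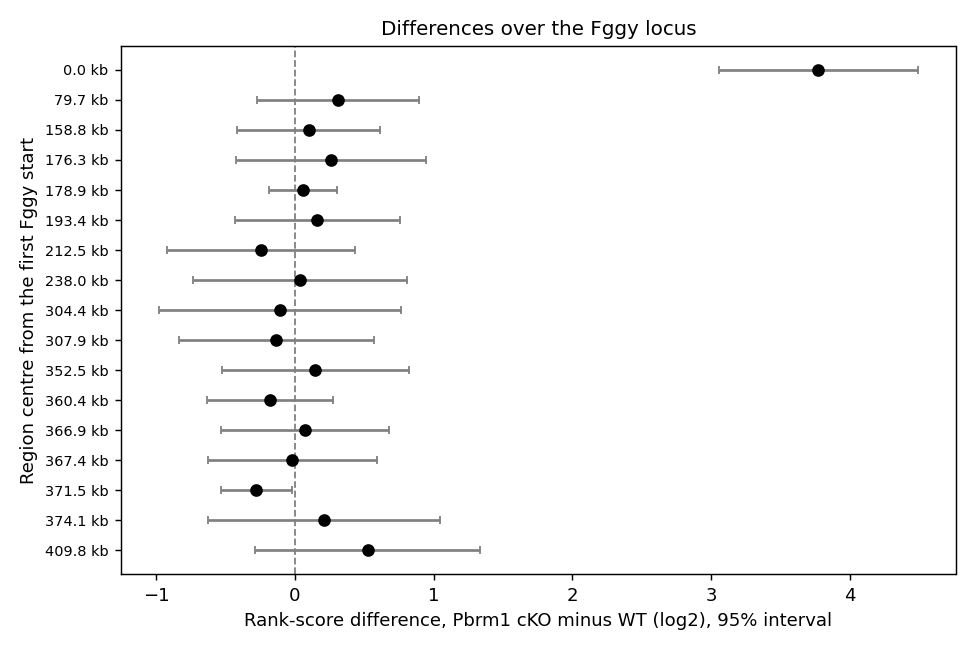
Rank-score difference (Pbrm1 cKO minus WT, log2) with its 95% interval from limma, for 17 regions listed by distance of their centre from the first Fggy start. The promoter, at the top, is at 3.77 and was chosen by this value. Its interval takes no account of that choice and is not a test. The other 16 lie between −0.28 and 0.53.

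The relaxed lists gave 60, 61 and 52 intervals outside the promoter region in WT 1, 2 and 3 and 61, 56 and 65 in Pbrm1 cKO 1, 2 and 3. The means were 57.7 ± 4.9 and 60.7 ± 4.5 intervals (SD, n = 3 each), and the groups overlapped (exact two-sided permutation test p = 0.6, adjusted over 2 measures p = 0.7). The covered length was 12785, 14141 and 9493 bases in WT and 13164, 13256 and 12839 bases in Pbrm1 cKO (exact permutation p = 0.7, adjusted p = 0.7). The mean difference of 947 bases became −377 bases without WT 3. With 3 libraries against 3 the smallest p this test allows is 0.1.

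Merged over libraries, the relaxed intervals formed 115 regions in the locus, of which 20 were found in all 6 libraries and 50 in a single one. An interval in all 3 Pbrm1 cKO libraries and no WT library was seen at 3 places, and the opposite at 2. The share of either pattern over the genome is not given here, so no difference is read from these counts. One of the 3 places found only in Pbrm1 cKO lay at 95557004 to 95557212, beside the promoter region. It ranked 88991.5 to 121804 among the intervals of its libraries. No conservative region lay between the start of the window and the promoter. The nearest regions beyond the window were 25.0 kb before it and 46.0 kb after it, with differences of 0.40 and 0.62.

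The FGGY-family kinases and the enzymes of pentose metabolism were read as the pathway around Fggy. Of 25 such genes other than Fggy, 21 had a promoter region, 28 regions in all. None passed the test in either direction (smallest adjusted p = 0.230, against 0.0675% of all regions called), and 2 had an unadjusted p under 0.05, against 15.9% of all regions. The median difference was −0.06, with 12 regions above 0 and 16 below it.

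Among the kinases, Gk, the glycerol kinase, scored 3.64 ± 0.35 in WT and 3.71 ± 0.49 in Pbrm1 cKO (SD, n = 3 each). Xylb, the xylulokinase, scored 2.33 ± 0.37 and 2.17 ± 0.52. Gk5, a glycerol kinase-like gene, had a main region at 5.07 ± 1.59 and 4.39 ± 0.73 and a weak one at 0.51 ± 0.07 and 0.15 ± 0.07. Shpk, the sedoheptulokinase, had 2 regions, of which one scored 5.44 ± 1.17 and 5.23 ± 0.71 and the other 5.30 ± 0.32 and 6.20 ± 0.78. In WT all these regions had higher means than the Fggy promoter, the weak Gk5 region by less than the SD, and Gk2 had no region. In Pbrm1 cKO the mean at Fggy (4.25 ± 0.27) lay between those of Gk and the main Gk5 region, and it lay within the SD of the latter.

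The other members with the largest differences were Akr1b3, the aldose reductase of the polyol pathway, and Rpia, which interconverts ribose 5-phosphate and ribulose 5-phosphate. Akr1b3 scored 5.83 ± 0.44 in WT and 4.63 ± 0.25 in Pbrm1 cKO (difference −1.19, SE 0.52, limma adjusted p = 0.274). Rpia scored 5.21 ± 0.64 and 6.06 ± 0.63 (difference 0.84, SE 0.60, limma adjusted p = 0.524). The second Shpk region differed by 0.90 (SE 0.61, limma adjusted p = 0.499).

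The promoter regions most like that of Fggy were found by the Euclidean distance between their 6 rank scores. Those of Entpd4b, Mndal, Iqsec3 and Fxr1 were among the nearest 5, at distances of 2.64 to 3.17 rank-score units. Their differences were 1.82, 1.57, 1.96 and 1.41, against 3.77 for Fggy. Differences above 0 follow from the choice by likeness to the Fggy scores, so these values are a description. Entpd4b and Mndal belong to families with closely related copies, so their reads may be split between genes. These 4 had entries in all 6 libraries, and their WT scores averaged 0.84 to 1.80.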

How the data were processed

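Peak lists of 6 ATAC-seq libraries (3 WT, 3 Pbrm1 cKO) and 2 conservative lists, 1 for each genotype, were used as deposited. Per the labels, the authors used cutadapt, Bowtie2 and MACS2 on GRCm38.p5. The study's methods, written for uterine stromal cells, name the ENCODE ATAC-seq pipeline with an irreproducible discovery rate (IDR) threshold of 0.05, and the transposase shift belongs to that pipeline. The deposited columns hold a display score, the fold (ratio) of a summit over background, and −log10 p and −log10 q. Relaxed lists stop at 300000 entries, so regions were compared by rank. The interval counts and covered lengths of the locus depend on that limit. Read counts were not used here, so the authors' count test was not repeated. In 221 weak entries the summit was a genome position and was converted.

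Tags over a summit were solved from fold = (tags + 1)/(background + 1) and the Poisson p-value. In a draw of 5000 entries with a −log10 p under 250 from each list, 99.98% to 100% gave a whole number within 0.0001 of the −log10 p. These values cover counting at 1 position only.

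Conservative intervals were merged, ranked in each library and tested in limma 3.58.1 (R 4.3.3) on rank scores of all 66679 regions with Benjamini-Hochberg adjustment. The limma fit and the tag recovery were checked on simulated data. Interval counts were compared by exact permutation in Python 3.11.15. Genes came from the GENCODE annotation of GRCm38, promoters being within 1 kb of a start, and genome matches from blastn 2.17.0+. Named genes were Fggy, genes starting in the window, the FGGY-family kinases, the 3 pentose genes with the largest differences, the markers and the 5 nearest patterns, of which 1 is not reported here. Alternatives were another scale, column, overlap, region set, window, threshold or promoter distance, a replicate block, and each library left out. The members and lists were chosen with earlier results of these data known. P-values measure the spread between these samples.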

Additional observations from a re-analysis of the deposited data

How the results depend on the processing

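The Fggy promoter difference, by which the locus was chosen, was above 0 under all 12 alternatives. All of them reuse the same libraries, so neither this sign nor the promoter's place in Pbrm1 cKO is independent support. The difference was 2.27 on normal scores, 5.73 when ranked by fold and 3.16 in the stricter region set, all on other scales or sets of regions than the reported value. It was 3.65 to 3.95 when 1 library was left out. The promoter was first of its locus in Pbrm1 cKO under all 13 alternatives, and its median place in WT moved from 13 to 7 in the stricter set, which holds fewer regions, and stayed within 9.5 to 14.5 otherwise. The counts of other locus regions and of pentose-list promoters past the threshold were 0 under every alternative run. The genome-wide counts were far less stable. Against 26 higher and 19 lower regions, there were 662 and 890 on normal scores, 4 and 0 by fold, 14 and 6 among regions with an entry in all 6 libraries, and 10 and 6 in the stricter set. Leaving out 1 library gave 2 to 5 higher and 0 to 15 lower regions, a fit with fewer samples. The interval count differed by −1 among the 100000 best-ranked intervals (0.17 to 5.33 with 1 library left out). The covered length differed by −377 bases without WT 3 and by up to 1947 bases without WT 2. The cause of these reversals was not tested.

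With the replicate number as a block, 66 regions were higher and 65 lower. The Fggy promoter difference stayed at 3.77 by construction, since the blocks are balanced between genotypes. Same-numbered libraries did not deviate together (correlations of −0.0029, −0.055 and 0.0091). Whether the numbers mark a shared preparation was not tested. The WT promoter values rest on 8 to 20 tags over the best summit, and the Pbrm1 cKO values on 78 to 95.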
